A study of Mus musculus with 12 samples.

Results

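The genes described here encode the collagens, the laminins and the integrin subunits of the mouse, chosen by symbol among the protein-coding genes. They number 82 of 21627: 44 collagen chains (Col genes), 11 laminin chains (Lama, Lamb and Lamc genes) and 27 integrin subunits (Itga and Itgb genes). Proteins that only bind integrins or resemble them, such as the product of Itgb1bp1, were left out. The rule reads symbols only, though the families were picked with earlier results of these data known.

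Collagens are triple helices of 3 chains that form fibrils, networks and beaded filaments in the extracellular matrix. Laminins are trimers of an alpha, a beta and a gamma chain and, with type IV collagen, build basement membranes, in the brain those of blood vessels and of the pial surface. Integrins are receptors of an alpha and a beta subunit that bind these proteins outside the cell and the actin cytoskeleton inside it. In the developing cerebellum laminin and its integrin receptors at the pial surface are known to affect the proliferation of granule neuron progenitors, the cells from which SHH medulloblastoma arises.

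ATAC-seq, whose transposase cuts DNA that is not packed in nucleosomes, was run on tumor cells sorted from endpoint medulloblastomas of Ptch1+/- mice, which lack 1 copy of the receptor that restrains Hedgehog signalling. No group was treated. One sort used eGFP, which reported SOX2, to separate SOX2+ (stem-like) from SOX2- (bulk) cells, with 4 libraries each; the other used RFP, which reported MKI67, to divide SOX2+ cells into cycling SOX2+/MKI67+ and non-cycling SOX2+/MKI67- cells, with 2 libraries each. Peak names inside the lists of replicate 1 of that sort mention RFP only and those of replicate 2 both reporters, so the SOX2 gate of replicate 1 rests on its label. All 4 groups thus share the Ptch1+/- genotype, and the labels do not say whether replicates came from separate mice, so that p-values measure only the spread between these libraries.

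The lists held 7009 to 26206 peaks, and since no read counts were used, depth is unknown and list length stands in for it. SOX2- replicate 1 (7009 peaks) and SOX2+ replicate 2 (9377) were the shortest. Peaks were assigned to the nearest gene, inside its span or within 100 kb. Of the markers of cell types other than tumor cells, 9 of 10 lymphocyte genes and 9 of 13 microglia and macrophage genes had no peak in any list. The microglia and macrophage markers together held 0 to 1.38 peaks per 10000 in SOX2- lists and 1.02 to 2.77 in SOX2+ lists. Among them Ptprc held 0, 0, 0 and 2 peaks in SOX2- and 2, 1, 2 and 2 in SOX2+ lists. From SOX2- to SOX2+ lists the mean went from 0 to 0.25 at P2ry12, 0.75 to 1.0 at Spi1 and 0.5 to 0.25 at Tmem119. Endothelial and mural markers held between 0 and 7.63 peaks per 10000 in SOX2- lists and 4.27 to 6.73 in SOX2+ lists. Fibroblast and meningeal markers held 0 to 8.01 and 0 to 7.91. Cspg4, an endothelial and mural marker here, and Pdgfra, a fibroblast and meningeal marker here, were also counted as oligodendrocyte lineage genes. Cspg4 held 0, 2, 0 and 1 peaks in SOX2- and 4, 3, 2 and 5 in SOX2+ lists. Pdgfra held 0, 5, 1 and 3 in SOX2- and 3, 0, 3 and 6 in SOX2+ lists. In these 4 marker lists 11 endothelial and mural, 10 fibroblast and meningeal, 4 microglia and macrophage and 1 lymphocyte gene were tested. None passed between SOX2+ and SOX2-, against 1.86% of all genes tested, and with so few tested this says little about such cells. The part of such cells in the results was not tested. Between SOX2+ and SOX2- cells 4 of 13 granule neuron progenitor genes tested fell, 2 of 8 oligodendrocyte lineage genes rose and 1 of 10 astrocyte genes rose (30.8%, 25.0% and 10.0%, against 0.415% of all genes tested that fell and 1.44% that rose), and whether these bear on the members was not tested. All 14 granule neuron progenitor genes had a peak in some list. A peak marks accessible DNA near a gene and is no measure of its RNA.

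A minority of the promoters of these genes held a peak. RefSeq gives 65 start sites for 59 of the 82 genes (GRCm38.p6), and a peak overlapped the window from 250 bases before to 50 after the start at 19 of them (29.2%), against 54.0% of 21044 windows over all genes. A peak in all 12 libraries was found at 3 (4.62%, against 22.5%): Itgb1, the beta subunit shared by most matrix receptors, Itgav, the alpha subunit of RGD-binding integrins, and Col11a1, a minor chain of cartilage fibrils. Genes without a window are not counted here. Among them Lamc1 had a peak region across an end of its span in all 12 libraries. Windows with a peak held a median of 20 CG dinucleotides and those without held 6, as over all genes (22 and 4). The stretches upstream of 4 start sites, from RefSeq, are shown because their peaks differ: Itgb1 and Col11a1 in all 12 libraries, Itgb8 in 11, and Col5a1 in 8, of which 1 was SOX2-. Capitals mark CG; only bases outside any gene span are printed, 5′ to 3′ on the gene's strand.
Itgb1, chr8:128685404-128685653, plus strand: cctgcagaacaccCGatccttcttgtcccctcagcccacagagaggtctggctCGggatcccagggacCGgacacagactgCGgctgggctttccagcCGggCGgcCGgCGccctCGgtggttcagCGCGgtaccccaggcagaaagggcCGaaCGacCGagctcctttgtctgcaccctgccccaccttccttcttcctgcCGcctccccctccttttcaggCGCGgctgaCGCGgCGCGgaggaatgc
Itgb8, chr12:119238277-119238526, minus strand: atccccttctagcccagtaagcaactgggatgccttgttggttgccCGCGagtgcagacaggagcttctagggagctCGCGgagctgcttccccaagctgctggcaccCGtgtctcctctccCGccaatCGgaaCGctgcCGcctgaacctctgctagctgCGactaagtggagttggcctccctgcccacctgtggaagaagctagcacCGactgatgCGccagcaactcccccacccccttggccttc
Col11a1, chr3:114030290-114030478, plus strand: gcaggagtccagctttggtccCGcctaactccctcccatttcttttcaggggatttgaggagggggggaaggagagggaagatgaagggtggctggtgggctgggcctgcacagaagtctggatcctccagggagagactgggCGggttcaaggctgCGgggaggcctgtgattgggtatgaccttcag
Col5a1, chr2:27886175-27886380, plus strand: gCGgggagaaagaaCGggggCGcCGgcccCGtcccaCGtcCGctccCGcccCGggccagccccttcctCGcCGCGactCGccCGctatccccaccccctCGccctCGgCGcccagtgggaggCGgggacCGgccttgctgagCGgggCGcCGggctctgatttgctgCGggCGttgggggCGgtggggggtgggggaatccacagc

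The Itgb1 stretch (250 bases) holds 21 CG dinucleotides, that of Col5a1 (206 bases) 25 and that of Col11a1 (189 bases) 3. The full windows, to which the medians refer, hold 27, 34 and 9. Col11a1 was open in as many libraries as Itgb1. The promoter of Col16a1, a chain that sits on fibril surfaces, had no peak in any SOX2- list, but one in 2 SOX2+ lists and in each MKI67-sorted list. Col4a1 and Col4a2, the chains of the common type IV network, face away from each other with start sites 21 bp apart, so that their windows share 1 peak, found in 1 SOX2-, 2 SOX2+ and all 4 MKI67-sorted lists. Letters searched on both strands were rarely found: the SOX words AACAAT and AACAAAG, which share their first 5 letters, in 6.15% and 3.08% of the members' windows (8.91% and 4.99% of all), and the AP-1 word TGANTCA in 6.15% (7.04%). The GLI word GACCACCCA and the palindromic NFI motif were in 0 of 65 windows and in 0.181% and 0.0333% of all. These shares describe letters in these windows and not binding.

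Elsewhere, most regions with a peak at these genes, each counted once, lay inside long genes. The median span was 76.3 kb, against 17.3 kb over all genes. All peaks, merged where they overlapped by 1 bp, gave 44242 regions, of which 262 fell to the 82 genes: 66.4% lay inside a gene more than 1 kb from its ends, 16.4% within 1 kb of an end inside or outside it and 17.2% outside, against 42.0%, 31.2% and 26.8% over all assigned regions. Only 8 of the 262 (3.05%) were listed in all 12 libraries, against 13.5%, and 90 (34.4%) in 1 library, against 29.1%. A peak in at least 1 library was found for 71 genes (86.6%, against 70.2%), but in all 12 for 8 (9.76%, against 23.0%). The 11 genes without any peak included Lamb2, Col7a1 of anchoring fibrils, Col10a1 of growth cartilage, Col4a5, and the leukocyte integrin subunits Itgal, Itgam, Itgax and Itgad.

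The share of each list at the 3 families moved with list length, and in the full lists the groups overlapped. Collagen genes held 17.0 ± 11.2 peaks per 10000 in SOX2- lists (SD, n = 4) and 20.8 ± 7.25 in SOX2+ lists (SD, n = 4). Laminin genes held 6.39 ± 2.56 and 5.67 ± 0.946, and integrin genes 13.1 ± 3.16 and 13.6 ± 2.16. These differences were smaller than the spread within a group. SOX2+/MKI67- lists held 22.8 ± 0.123 at collagen genes and SOX2+/MKI67+ lists 26.3 ± 4.01 (SD, n = 2 each). Across the 3 families together the shortest list held 15.7 per 10000 and the 4 longest lists between 47.3 and 52.1. When the 7009 strongest peaks of every list were compared, collagen genes held 3 to 8 peaks per SOX2- list and 8 to 10 per SOX2+ list, so that the ranges met at 8. The 3 families together then held 11 to 16 peaks per SOX2- list (19.6 ± 3.75 per 10000, SD, n = 4) and 18 to 22 per SOX2+ list (28.2 ± 2.94, SD, n = 4), without overlap. The SOX2+/MKI67- lists held 17 to 22 and both SOX2+/MKI67+ lists 18, also above the SOX2- lists. Other long genes were not counted in this way, so whether the separation is particular to these families was not tested. At equal length the laminin (2 to 3 in both SOX2 groups) and integrin ranges (4 to 10 and 6 to 9) overlapped.

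**Figure D1:**
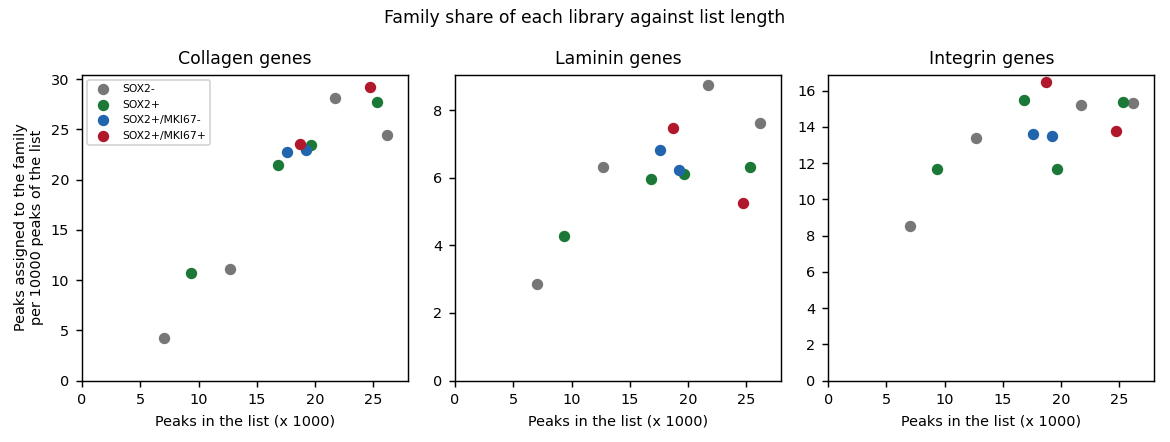
Peaks at collagen, laminin and integrin genes per 10000 peaks of each list (y axis, linear) against the number of peaks in the list (x axis), 1 point per library, coloured by group. The 2 shortest lists hold the lowest collagen shares, 4.28 and 10.7 per 10000, and the groups lie among each other at like lengths.

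Between SOX2+ and SOX2- cells 1 of the 65 member genes tested passed, Col4a4, with more peaks in SOX2+ cells. Genes listed with a peak in 2 or more of the libraries, unless their number was equal in all, were tested with limma on log2(peaks + 1) with list length as a covariate, so differences are on that scale, which understates changes of low counts. Over all 12540 genes tested 1.44% were called higher and 0.415% lower in SOX2+ (181 and 52; 1.86% either way), so 1 higher and 0 lower of 65 lies near that background. At unadjusted p under 0.05 there were 15 members (23.1%), 5 higher and 10 lower. Over all genes the share was 15.6%, with 973 higher and 983 lower. The median difference was 0.038 over the members and -0.003 over all genes. The only member with the same count in every list was Itgae (1 peak each), 5 members had a peak in 1 library only, and these were not tested.

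Col4a4 encodes a chain of the type IV collagen network of the glomerular and other specialised basement membranes. It had 0 peaks in each of the 4 SOX2- lists and 1, 1, 1 and 2 in SOX2+ replicates 1 to 4. Both SOX2+/MKI67- lists held 1, and the SOX2+/MKI67+ lists 1 and 2. The SOX2 groups did not overlap, and the fitted difference was 1.13 (SE 0.19; limma, adjusted p = 0.0183). The peak found in every SOX2+ list lies inside the gene at chr1:82476368-82477173 (mm10), and its q value ranked between percentiles 30.4 and 56.5 of those lists (100 is the strongest). The call was lost without SOX2- replicate 2 (limma, adjusted p = 0.0592) and with only the stronger 50% of each list (limma, adjusted p = 0.219). It was also lost with the replicate number as a term of the fit (limma, adjusted p = 0.0925). At equal peak numbers Col4a4 did not enter the test. Its neighbour Col4a3, which starts beside it on the other strand and whose chain assembles with that of Col4a4, had 0, 2, 1 and 2 peaks in SOX2- and 0, 0, 1 and 1 in SOX2+ lists; the groups overlapped and the difference was -0.68 (SE 0.23; limma, adjusted p = 0.19).

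Among the other collagens no member passed, and the values of those with the smallest p are given as such. Col5a3, a chain of minor fibrillar collagen, had 0, 0, 0 and 1 peaks in SOX2- and 2, 1, 1 and 2 in SOX2+ lists (difference 1.00, SE 0.24; limma, adjusted p = 0.0764). The groups met at 1 peak. Col6a3, a chain of beaded filaments, had 2, 4, 1 and 3 peaks in SOX2- and 0, 0, 0 and 2 in SOX2+ lists (difference -1.42, SE 0.32; limma, adjusted p = 0.0591). The overlap came from SOX2+ replicate 4, and without it the call was made (limma, adjusted p = 0.0202). Both genes were called with the same number of peaks taken from every list (limma, adjusted p = 5.03e-05 for Col5a3 and 0.00113 for Col6a3). The differences there were 1.00 and -1.15, no larger than in the full lists, so the smaller p values do not stand for larger differences. Col5a3 was called with the stronger 50% of each list, too (difference 1.00, limma, adjusted p = 0.00674). Col5a3 was likewise called without SOX2- replicate 4 (limma, adjusted p = 0.0276). Both genes were also called in 2 other versions of the fit. These used a robust estimate of the spread (limma, adjusted p = 0.032 for Col5a3 and 0.00896 for Col6a3) or left out genes constant within every group (limma, adjusted p = 0.0426 and 0.0122). Col5a3 was not called under 22 of 27 alternatives (limma, adjusted p up to 0.212), nor Col6a3 under 23 of 27 (limma, adjusted p up to 0.305). With peaks within 10 kb only, the Col6a3 difference was -0.78 (limma, adjusted p = 0.152). Col27a1, a fibrillar collagen of cartilage, had 0, 4, 1 and 4 peaks in SOX2- and 6, 4, 4 and 4 in SOX2+ lists (difference 0.90, SE 0.30; limma, adjusted p = 0.192); the groups met at 4 peaks. Col4a6 (0, 2, 0 and 2 in SOX2-) and Col13a1, a transmembrane collagen (0, 3, 0 and 2), had no peak in any SOX2+ list, nor in the 2 shorter SOX2- lists. The network chains Col4a1 and Col4a2 differed by 0.31 (SE 0.36) and 0.10 (SE 0.27).

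No laminin passed. Lama2, the alpha chain of muscle and vessel laminin, had 0, 3, 3 and 5 peaks in SOX2- and 1, 0, 3 and 2 in SOX2+ lists (difference -0.68, SE 0.31; limma, adjusted p = 0.313), with overlapping groups. Lama5 had 0, 3, 0 and 2 against 0, 0, 1 and 0 (difference -0.77, SE 0.38; limma, adjusted p = 0.382). Lamc1, the gamma chain of most laminins, had at least 1 peak in all 12 lists, and its difference was 0.06 (SE 0.27). Lama1, Lama3, Lama4, Lamb1 and Lamb3 differed by -0.50 to 0.31, and the groups overlapped at each.

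Among the integrins none passed either. Itga6, the alpha subunit of laminin receptors and a surface marker of many stem cells, had 0, 1, 0 and 0 peaks in SOX2- and 1, 1, 1 and 2 in SOX2+ lists (difference 0.84, SE 0.22; limma, adjusted p = 0.0891). The groups met at 1 peak. The region behind it lies 91.9 kb from the gene, and with peaks within 10 kb only the difference was -0.07, the other way. Itgav had 1, 4, 2 and 3 peaks in SOX2- and 1, 1, 1 and 2 in SOX2+ lists (difference -0.68, SE 0.20; limma, adjusted p = 0.139). Itgb3, a partner of Itgav, had none in SOX2- and 2, 0, 0 and 2 in SOX2+ lists (difference 0.75, SE 0.37). Itgb2, the leukocyte beta subunit, had 0, 2, 0 and 1 in SOX2- and none in SOX2+ lists (difference -0.73, SE 0.26; limma, adjusted p = 0.202), while its partners Itgal, Itgam and Itgax had no peak anywhere. The ubiquitous Itgb1 differed by 0.04 (SE 0.17), and Itga3 and Itgb4, subunits of laminin receptors of epithelia, by 0.31 (SE 0.34) and -0.02 (SE 0.31).

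**Figure D2:**
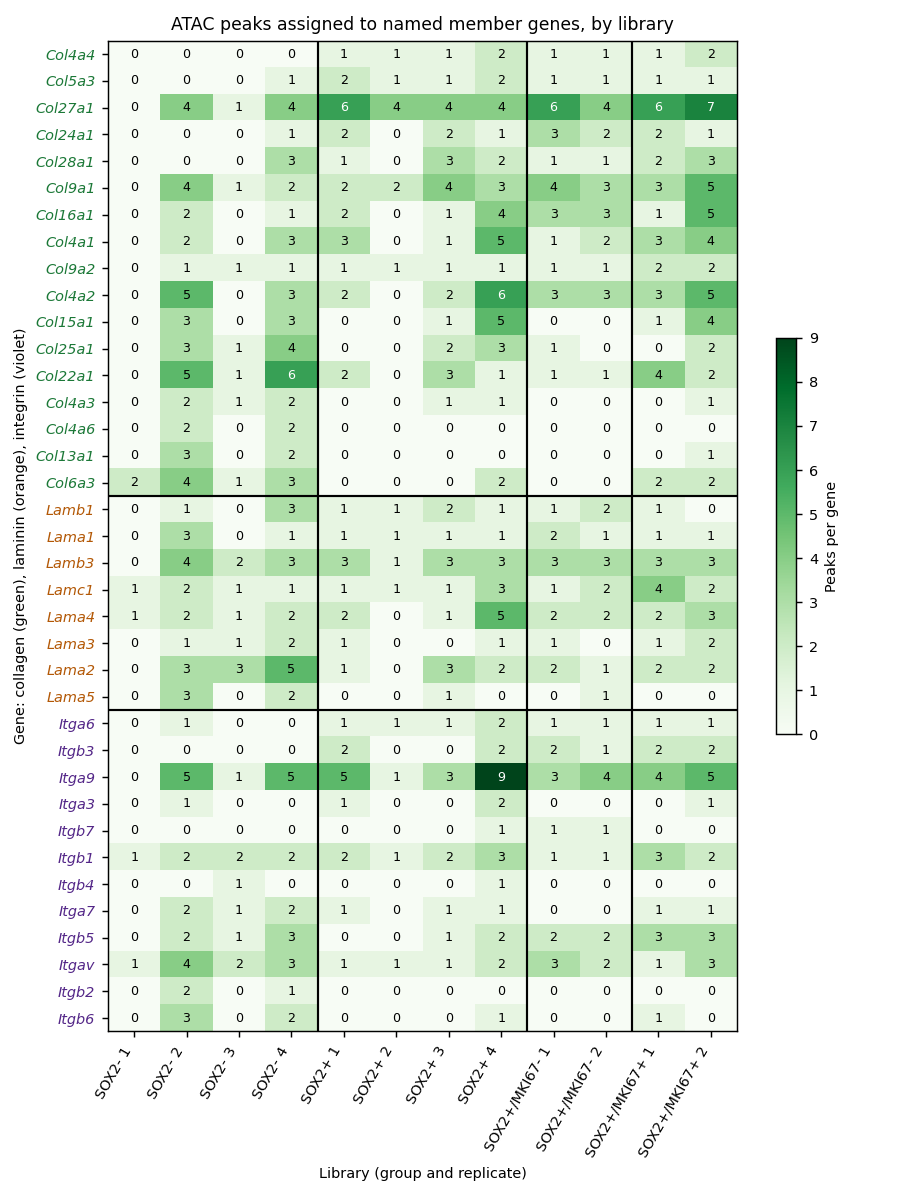
Number of peaks (figure in each cell, and shade) assigned to the 37 named genes that were tested (rows, by family and then by SOX2 difference) in the 12 libraries (columns, by group). Col4a4 is at 0 in all 4 SOX2- lists and at 1 or 2 in all others, while SOX2- replicate 1, the shortest list, is at 0 for most genes.

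Regions at these genes that were listed in at least 3 of 4 libraries of one SOX2 group and in none of the other numbered 12 for SOX2+ (4.58% of 262, against 4.1% of all regions) and 5 for SOX2- (1.91%, against 1.54%), both near the background. Collagen genes held 9 of the 12, and 58.8% of the 262 regions; 5.84% of collagen regions were thus SOX2+ exclusive. In the MKI67-sorted SOX2+ libraries, which the choice of regions did not use, all 12 were listed in 2 or more and 9 in all 4 (75.0%), against 94.1% and 61.7% of the 1814 SOX2+ regions over all genes. Of the 5 SOX2- regions 4 were in none of these 4 libraries, against 50.3% of 680. No SOX2- region was in SOX2- replicate 1.

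Col9a2, a chain of type IX collagen, held 1 region of each kind 757 bp apart. The SOX2- region (chr4:121039836-121040255) begins 270 bp after the gene start and was listed in SOX2- replicates 2, 3 and 4, in no SOX2+ list and in SOX2+/MKI67+ replicate 1. The SOX2+ region (chr4:121041013-121041676) begins 1447 bp after the start and was listed in all 8 lists of SOX2+ cells and in no SOX2- list. Its q value ranked between percentiles 67.2 and 83.2 of the SOX2+ lists, and a SOX2+ region was found at Col9a2 under all 15 alternatives. The SOX2- region ranked between 16.3 and 56.0, and a SOX2- region was found under 8 of 15. The number of peaks at Col9a2 did not show this: it was 0, 1, 1 and 1 in SOX2- and 1 in each SOX2+ list (difference 0.20, SE 0.18; limma, adjusted p = 0.651).

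At Col27a1 3 SOX2+ regions were found: chr4:63228885-63229478 and chr4:63253628-63254207 inside the gene, in all 8 lists of SOX2+ cells, and chr4:63205481-63206104 8.22 kb outside it, in all but SOX2+ replicate 3. A SOX2+ region was found there under all 15 alternatives. At Col9a1, another chain of type IX collagen, chr1:24244852-24245314 inside the gene was in all 8 lists, with q values at percentiles 58.8 to 74.7 of the SOX2+ lists, and a SOX2+ region was found there under 14 of 15 alternatives. The region near Itga6 (chr2:71694676-71695262) was in all 8, too. Like that of Col4a4 it was found under 13 of 15 alternatives; both were absent at equal peak numbers. Those at Col24a1 (chr3:145550148-145550660) and Col28a1 (chr6:8068959-8069471) were in 7, at Col16a1 (chr4:130054746-130055335) and 73.5 kb from Lamb1 (chr12:31191404-31191833) in 6, and at Itga9 (chr9:118747835-118748297) in 5. These 5 genes kept a SOX2+ region under 7 (Lamb1), 8 (Col24a1 and Itga9) or 9 (Col16a1 and Col28a1) of 15 alternatives. The other SOX2- regions lie inside Lama2 (chr10:27054421-27054838), Itga7 (chr10:128938350-128939124), Col22a1 (chr15:72110551-72110878) and Col25a1 (chr3:130290229-130290697), each found under 8 or 9 of 15. Regions in 3 of 4 lists depend on single libraries: with 4 of 4 required, 6 SOX2+ and 0 SOX2- regions were left.

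**Figure D3:**
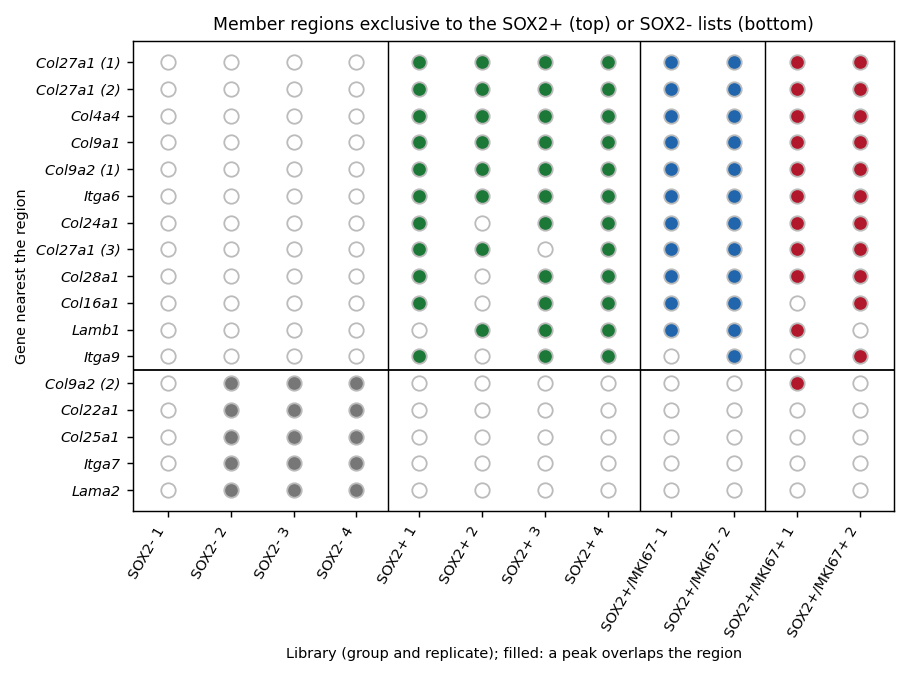
Presence (filled) of a peak in each of the 12 libraries (columns) at the 12 SOX2+ and 5 SOX2- regions (rows, named by the nearest gene). The top 6 rows are filled in all 8 lists of SOX2+ cells, and the bottom rows lack SOX2- replicate 1.

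**Figure D4:**
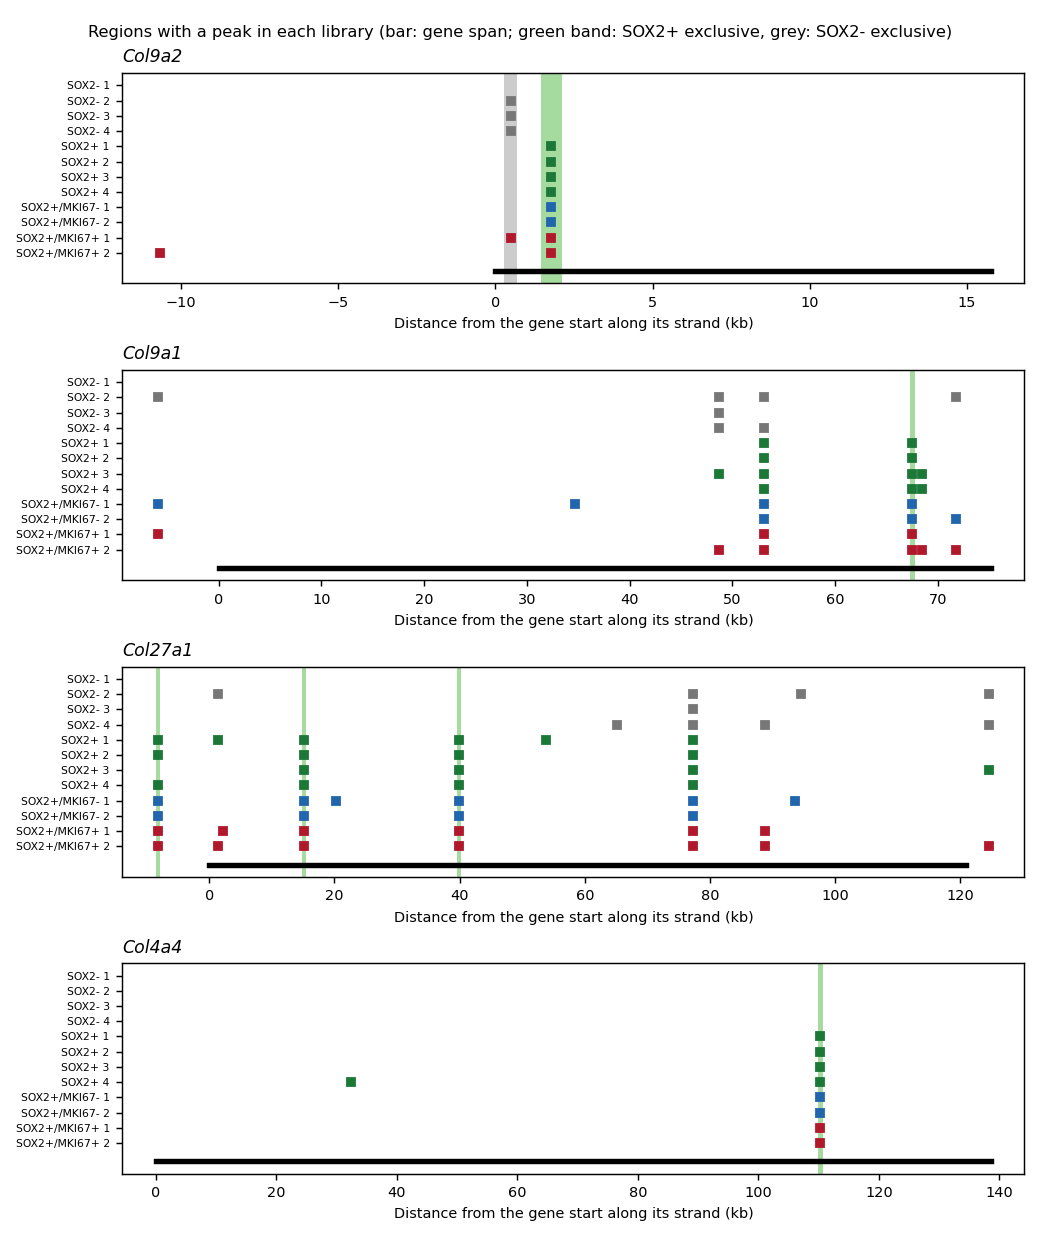
Regions with a peak (squares) in each library (rows) along Col9a2, Col9a1, Col27a1 and Col4a4, by distance from the gene start in kb; the black bar is the gene span and bands mark regions exclusive to SOX2+ (green) or SOX2- lists (grey). At Col9a2 the bands lie side by side, 757 bp apart.

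Cycling and non-cycling SOX2+ cells gave no call: limma called 0 of 65 members, and 0 of 12540 genes (0.0% in either direction), with 2 libraries a group. The count for all genes depends on the fit: with genes of the same count in all lists kept, 32 genes and 0 members were called, and at equal peak numbers 56 genes and 1 member, Itgae. At unadjusted p under 0.05 there were 5 members (7.69%), 4 higher and 1 lower in MKI67+. Over all genes there were 692 (5.52%), 475 higher and 217 lower. Col6a3 had 0 and 0 peaks in MKI67- and 2 and 2 in MKI67+ lists (difference 1.46; limma, adjusted p = 0.693). Itga7, the alpha subunit of the muscle laminin receptor, had 0 and 0 against 1 and 1 (0.82; limma, adjusted p = 0.693), and Itgb7, a leukocyte beta subunit, 1 and 1 against 0 and 0 (-1.04; limma, adjusted p = 0.693). Itgb1 had 1 and 1 against 3 and 2 peaks (0.71; limma, adjusted p = 0.711). The groups did not overlap at these 4 genes, but this was common with 2 libraries a group: it held for 13 of 65 members (12 higher, 1 lower in MKI67+) and for 1360 of 12540 genes (10.8%; 1131 higher, 229 lower). The MKI67+ lists hold 18738 and 24694 peaks and the MKI67- lists 17615 and 19229, and the part of list length in this was not tested. Col15a1, a basement membrane collagen, had 0 and 0 against 1 and 4 (1.35; limma, adjusted p = 0.8). For laminins, Lamb1 had 1 and 2 against 1 and 0, and Lamc1 1 and 2 against 4 and 2.

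Each MKI67 group was also set against the SOX2- lists, which these comparisons share with the first; the 2 sorts and the groups cannot be told apart here. SOX2+/MKI67- cells had 1 member called, Itga7, lower (limma, adjusted p = 0.0233; difference -1.28), of 65, against 0.47% of all genes called lower and 0.797% higher (1.27% either way). Itga7 had 0 and 0 peaks in those lists and 0, 2, 1 and 2 in SOX2- lists, so that SOX2- replicate 1 overlaps them, and the call was lost without the list-length covariate (limma, adjusted p = 0.532), with the stronger 50% of each list (difference -0.62; limma, adjusted p = 0.253), without SOX2+/MKI67- replicate 1 or 2 (limma, adjusted p = 0.167 and 0.129) and without SOX2- replicate 2 or 4 (limma, adjusted p = 0.054 and 0.062). Without 1 of these 4 libraries the difference stayed between -1.34 and -1.23; leaving out a SOX2+/MKI67- library leaves 1, assumed to vary like the other groups. The Itga7 call was also lost with the replicate number as a term of the fit (limma, adjusted p = 0.0837). At equal peak numbers Itga7 did not enter this test. In the SOX2 comparison the difference of Itga7 was -0.42 (limma, adjusted p = 0.269). At unadjusted p under 0.05 there were 21 members (32.3%, against 16.9% of all genes). In SOX2+/MKI67+ cells 0 members were called, against 0.375% of all genes, and 10 (15.4%, against 11.6%) had an unadjusted p under 0.05. Col4a4 differed by 0.96 in SOX2+/MKI67- (limma, adjusted p = 0.0759) and by 1.22 in SOX2+/MKI67+ cells (limma, adjusted p = 0.0731).

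**Figure D5:**
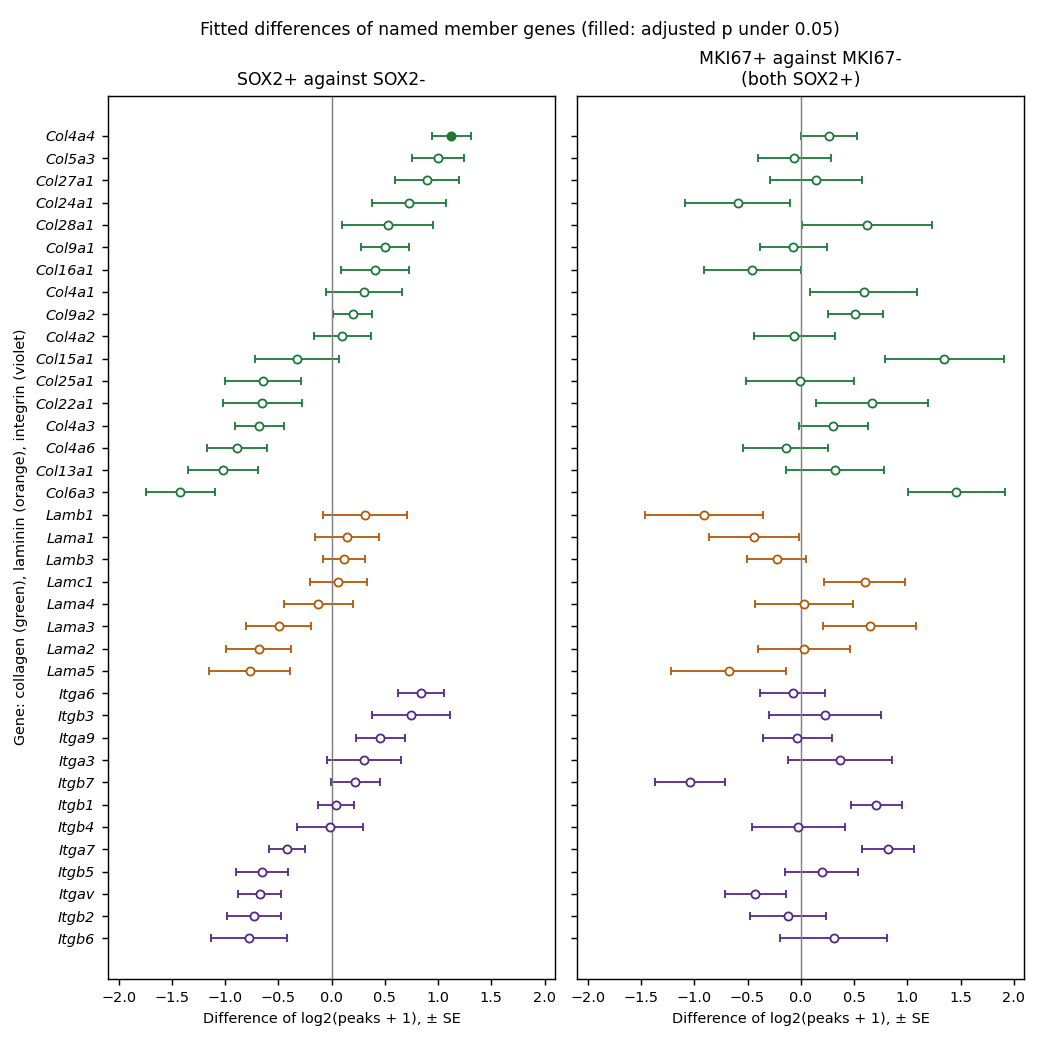
Fitted differences of log2(peaks + 1) with their standard errors (x axis) for the 37 named genes tested (rows), for SOX2+ against SOX2- (left) and SOX2+/MKI67+ against SOX2+/MKI67- (right); filled points passed the adjusted threshold of 0.05. Col4a4 on the left, at 1.13, is the only filled point.

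Of 64 partner genes of the pathway (other matrix proteins and receptors, integrin-bound proteins, collagen-modifying enzymes, matrix proteases and their inhibitors) 54 were tested. In SOX2+ against SOX2- cells 2 rose and 0 fell, or 3.7% and 0.0%, against 1.44% and 0.415% of all genes. At unadjusted p under 0.05 there were 12 (22.2%, against 15.6%), and the median difference was 0.16, against -0.003 over all genes. Src, the kinase activated at integrin adhesions, had 0, 1, 1 and 1 peaks in SOX2- and 3, 2, 2 and 4 in SOX2+ lists, without overlap (difference 1.04, SE 0.20; limma, adjusted p = 0.0293). P4ha3, a subunit of the enzyme that hydroxylates collagen prolines, had 0 in each SOX2- and 1 in each SOX2+ list (difference 0.99, SE 0.21; limma, adjusted p = 0.0421). The lowest p values in the other direction belonged to Cd44, the hyaluronan receptor (difference -0.95, SE 0.23; limma, adjusted p = 0.0735), and Parvb, an integrin-linked adaptor (difference -0.96, SE 0.29; limma, adjusted p = 0.14). The other comparisons called none of the 54, with 5 (9.26%, against 5.52% of all genes) at unadjusted p under 0.05 in SOX2+/MKI67+ against SOX2+/MKI67-, 11 (20.4%, against 16.9%) in SOX2+/MKI67- and 8 (14.8%, against 11.6%) in SOX2+/MKI67+ cells, each against SOX2-.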

How the data were processed

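ATAC-seq peak lists of 12 libraries were used (50 bp single-end reads from 35000 to 50000 sorted cells, per the labels). The authors aligned reads with Bowtie2 and called peaks with MACS2 on mm10, per the submitters' processing notes; versions and thresholds are not given in the sources used here. Each list is of 1 library. The deposited lists give for each peak a score, a fold enrichment (ratio) and −log10 p and q values, all the authors' own; only positions, and the −log10 q for ranking within a list, were used here. Depth is unknown.

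Each peak went, by its midpoint, to the closest gene of 21627 that encode proteins (RefSeq, GRCm38.p6) on the 19 autosomes and X, within 100 kb. Peaks per gene were fitted with limma 3.58.1 in R 4.3.3 (trend; log2(peaks + 1); 4 groups and log10 list length; all 12 libraries; two-sided; Benjamini-Hochberg over 12540 genes; adjusted p under 0.05), tested on simulated data. Genes with the same count in all 12 libraries were left out of the fit. That was decided after the calls of 4 versions of the fit had been seen: as used, it called 233 genes between SOX2+ and SOX2-; with those genes kept 127, without genes constant within every group 332, and with a robust spread 337. Col4a4 was called in all 4. Members and lists were chosen with earlier results of these data known. Named genes are the 7 members per family with the smallest unadjusted p in the SOX2 comparison, the 2 with the smallest in the MKI67 comparison, all that passed or hold an exclusive region, and fixed basement membrane and leukocyte genes (41 in all, 37 tested). Alternatives changed list length, scores, filters, pseudocount, assignment, libraries and the estimate of the spread. Sequences of peaks were not analysed here. Figures used matplotlib 3.10.9.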

Additional observations from a re-analysis of the deposited data

Results flagged for a closer look

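In 5 of 51 groups of 4 libraries examined 1 library stood apart from the other 3, which were equal; chance flags about 1 in 20 groups. SOX2- replicate 4 had 3 peaks at Col28a1, where the others had 0. SOX2+ replicate 1 had 6 at Col27a1, against 4 in the others. SOX2+ replicate 4, the longest SOX2+ list, had 2 at Col6a3, against 0, and 3 at Lamc1, against 1. SOX2+ replicate 2, the shortest SOX2+ list, had 1 at Lamb3, against 3. Peaks per gene are small whole numbers, so ties are common.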

How the results depend on the processing

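Peak lists without read counts limit what can be seen: an absent peak may lie just under the authors' threshold, list length differs several-fold between libraries, and a step of 1 peak is the unit. Col4a4 was called in SOX2+ under 23 of 26 alternatives, at differences of 0.71 to 1.74 and adjusted p (limma) of 0.00981 to 0.219, and Itga7 in SOX2+/MKI67- against SOX2- under 19 of 26, at adjusted p of 0.0109 to 0.532. Of 955 values of the 37 named members tested, 907 kept direction and side of the threshold, 10 gained and 3 lost the call and 35 reversed. The causes were not tested. The alternatives with the same-count genes kept, genes constant within every group left out, a robust spread, each overlapping gene counted and the 2 shortest lists left out were chosen after seeing the data.

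In SOX2+ against SOX2-, genes called numbered 233, and 71 without the list-length covariate, 93 in the stronger 50% of each list, 135 inside gene spans, 137 with the 2 groups only, 127 with same-count genes kept and 59 with the replicate block. Members called numbered 1, and 2 at equal peak numbers (Col5a3 and Col6a3), 3 without genes constant within groups and 3 with a robust spread (Col4a4, Col5a3 and Col6a3 in both), and 0 with the replicate block (Col4a4, limma adjusted p = 0.0925). In SOX2+/MKI67+ against SOX2+/MKI67-, 0 genes were called, and 56 at equal peak numbers, with 1 member (Itgae), and 32 with same-count genes kept. In SOX2+/MKI67- against SOX2-, 159 genes were called, and 58 without the covariate, 278 at equal peak numbers, 52 in the stronger 50%, 625 with the 2 groups only, 258 without genes constant within groups, 250 with a robust spread and 329 without the 2 shortest lists. There, 1 member was called, and 0 without the covariate, 4 at equal peak numbers, 2 with a peak in at least 4 libraries, 5 with the 2 groups only, 3 without genes constant within groups, 2 with a robust spread and 0 with the replicate block (Itga7, limma adjusted p = 0.0837). In SOX2+/MKI67+ against SOX2-, 47 genes were called, and 162 at equal peak numbers, 13 with a peak in at least 1 library, 12 within 10 kb, 4 inside gene spans, 262 with the 2 groups only, 79 with same-count genes kept, 182 without the 2 shortest lists and 170 with the replicate block. There, 0 members were called, and 2 at equal peak numbers, 2 in the stronger 50%, 1 at pseudocount 0.5 and 1 with the 2 groups only. The replicate block, a fit with the replicate number as a term, changed no other count of calls by over 1.5 times. Whether the numbers pair the samples could not be decided. Residuals of same-numbered SOX2+ and SOX2- libraries correlated at -0.182 to 0.406, and those of other pairs at -0.54 to 0.477. These ranges overlap and rest on few pairs.

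SOX2+ regions at members numbered 12, and 6 with 4 of 4 libraries required and 5 at equal peak numbers. SOX2- regions numbered 5, and 0 with 4 of 4, 1 at equal peak numbers and 0 in the stronger 50%. Leaving out 1 library at a time gave 96 to 257 genes and 1 to 2 members called in the SOX2 comparison, 0 and 0 in the MKI67 comparison, 0 to 280 genes and 0 to 4 members for SOX2+/MKI67- and 0 to 112 genes and 0 to 1 member for SOX2+/MKI67+ against SOX2-. It gave 6 to 16 SOX2+ and 0 to 8 SOX2- regions, and differences in peaks per 10000 of -0.396 to 7.55 at collagen, -1.91 to 0.0647 at laminin and -1.05 to 1.19 at integrin genes.

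Differences of named members in SOX2+ against SOX2- reversed as follows. In the stronger 50% of each list Col16a1 was -0.012, Col25a1 0.165, Col4a1 -0.34, Itga9 -0.083, Lamb1 -0.056 and Lamc1 -0.322. Within 10 kb Itga6 was -0.065, Lama4 0.583 and Lamb1 -0.588, and inside spans -0.065, 0.112 and -0.588. At equal peak numbers Lama2 was 0.25. Without the 2 shortest lists Itgb4 was 0.024, Lama1 -0.089, Lama4 0.269 and Lamb3 -0.001, and with the replicate block Itgb4 was 0.015. With 1 library left out, values that reversed in some libraries ranged from -0.045 to 0.979 for Col28a1, -0.149 to 0.389 for Col4a2, -0.04 to 0.162 for Itgb1, -0.189 to 0.073 for Itgb4, -0.0 to 0.319 for Itgb7, -0.137 to 0.525 for Lama1, -0.408 to 0.216 for Lama4, -0.076 to 0.235 for Lamb3 and -0.142 to 0.18 for Lamc1.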
